A study of Mus musculus with 15 samples.

Results

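Sox2, Sox3, Sox9, S100b, Nes and Gfra2 are genes by which stem and progenitor cells of the mouse pituitary are recognised, and their transcript levels were followed in newborn pituitaries of wild type mice and of 2 dwarf mutants. The 6 genes were taken by name, with earlier results of these data known, and all 6 are given whatever their values. They are read by 16 probe sets of an Affymetrix mouse whole-genome expression array, out of 18193 genes and 45037 probe sets. Each of the 15 arrays carried biotin-labelled cRNA from 1 pool of whole-pituitary RNA collected at postnatal day 1, and each of the 3 groups had 5 pools. The Pit1+/+ group was wild type on the DW/J strain, and the Pit1dw/dw group, homozygous for the Snell dwarf allele of Pit1 (Pou1f1), was on the same strain. The Prop1df/df group was on the DF/B strain. Strain and genotype therefore cannot be told apart in either comparison that includes Prop1df/df. All mice were fed a high fat chow. The number of pituitaries behind each pool is not stated in the labels.

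Sox2 is a transcription factor of stem cells in many tissues, and in the pituitary it marks cells that line the cleft and are scattered through the anterior lobe. Some of these cells also make the transcription factor Sox9 and the calcium-binding protein S100b, which is shared with the folliculostellate cells, the non-hormonal network of the adult gland. Nestin (Nes) is an intermediate filament of neural and other progenitors, Gfra2 is the receptor for neurturin of the GDNF family, and Sox3 is a close relative of Sox2 needed for normal development of the hypothalamus and pituitary. Pit1 is a transcription factor of the lineage that gives growth hormone, prolactin and thyrotropin cells. The comparisons ask whether the marker genes stood at the same level in the 3 genotypes.

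Levels are log2 RMA signals, so that 1 unit is a factor of 2, and the median of all values was 4.37. Some pools stood apart. Gh, the growth hormone gene, was at 13.58, 14.07 and 14.03 in Prop1df/df pools 1, 2 and 3 but at 8.99 and 10.24 in pools 4 and 5, against 14.15 to 14.28 in Pit1+/+ and 7.15 to 10.31 in Pit1dw/dw. Tshb, the thyrotropin subunit gene, split the same Prop1df/df pools into 9.83, 9.89 and 9.68 against 6.28 and 7.17. Hesx1 was higher and Pax7 and Aldh1a2 were lower in all 5 Prop1df/df pools than in any other pool. Pit1+/+ pool 1 carries a Prop1df/df genotype entry beside its Pit1+/+ title, and its Hesx1 level of 2.81 and Pax7 level of 8.27 lay among those of the other Pit1+/+ pools. Prph, an intermediate filament gene of peripheral neurons, exceeded 7 in 5 pools (Pit1+/+ pool 3, Pit1dw/dw pools 2 and 3, Prop1df/df pools 3 and 4). Xist, which is transcribed from the inactive X chromosome of females, was at 3.69 in Pit1+/+ pool 4 and at 4.20 and 3.89 in Pit1dw/dw pools 2 and 3, and between 8.55 and 11.23 in the other 12 pools. Pou1f1 is not named alone by any probe set, so its own transcript was not analysed here.

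Of the 6 markers, Gfra2 was the 1 that passed the test, as lower in Prop1df/df than in Pit1+/+. None passed the test in Pit1dw/dw against Pit1+/+, where 0.770% of all genes passed (limma, adjusted p under 0.05), and at an unadjusted p under 0.05 there was 1, Sox9, where 8.46% of all genes were. In Prop1df/df against Pit1+/+ 1 of the 6 passed, where 10.6% of all genes passed and 7.31% passed as lower, and 2, S100b and Gfra2, had an unadjusted p under 0.05, as did 24.4% of all genes. None passed between the mutants, where 6.26% of all genes did, and 2, Sox2 and Gfra2, had an unadjusted p under 0.05, as did 20.1% of all genes. The median change of the 6 was -0.01 in Pit1dw/dw and 0.18 in Prop1df/df, beside -0.02 and -0.04 over all genes. On its representative probe set no marker had ranges that did not overlap in any of the 3 comparisons. Of all genes 2.78%, 8.01% and 8.50% had such ranges in Pit1dw/dw against Pit1+/+, Prop1df/df against Pit1+/+ and Prop1df/df against Pit1dw/dw. The comparisons share their groups, so their values are given side by side and are not independent. In whole-pituitary RNA fewer cells of a type and less RNA per cell cannot be told apart.

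**Figure D1:**
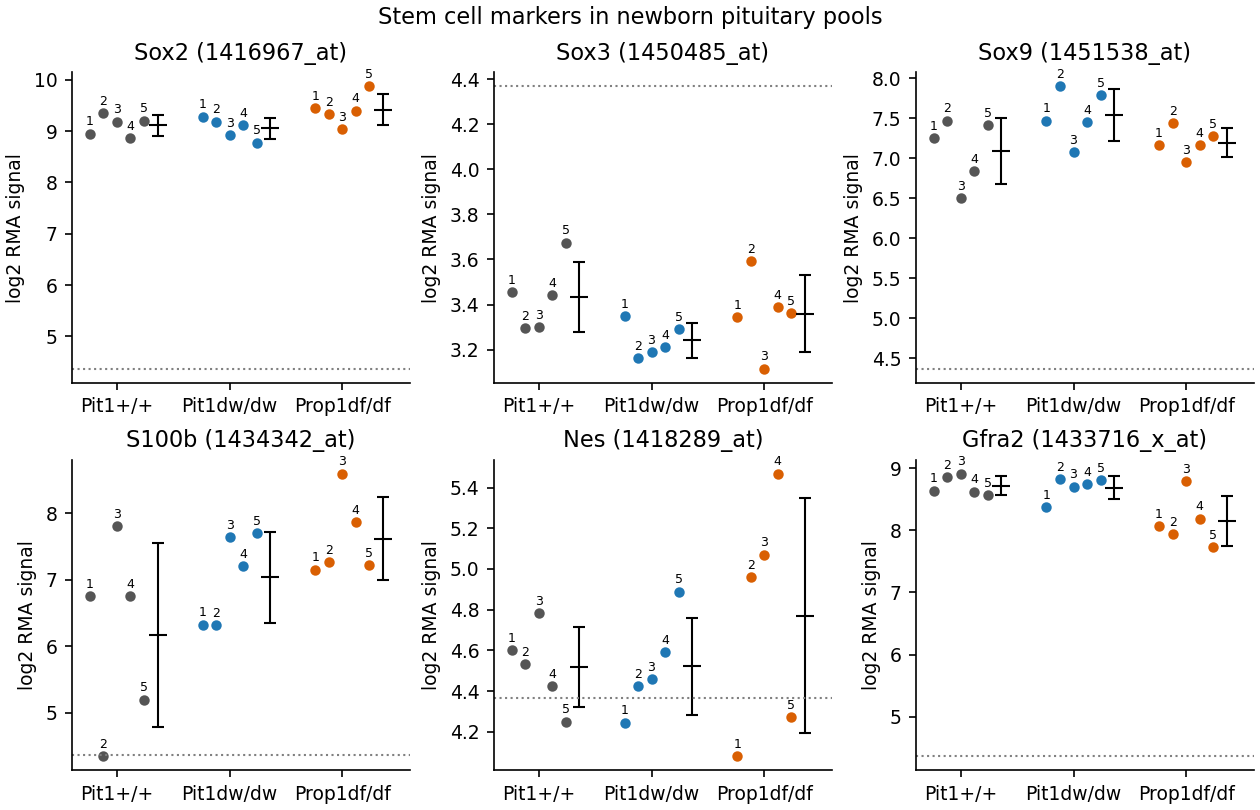
Log2 RMA signal of the representative probe set of each marker in the 15 pools (numbered points), with the mean and SD of each group of 5 (black) and the median of all values (dotted line, 4.37). Gfra2 was lower in 4 of the 5 Prop1df/df pools than in any Pit1+/+ pool, S100b ran from 4.35 to 7.80 within Pit1+/+, and Sox3 lay below the dotted line in every pool.

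Sox2 stood at 8.95, 9.35, 9.18, 8.87 and 9.21 in Pit1+/+ pools 1 to 5. In the Pit1dw/dw pools it stood at 9.28, 9.19, 8.92, 9.12 and 8.78, and in the Prop1df/df pools at 9.46, 9.33, 9.04, 9.40 and 9.87. The ranges of the 3 groups overlapped, with the highest value in Prop1df/df pool 5. The group means were 9.11 ± 0.20, 9.06 ± 0.21 and 9.42 ± 0.30 (SD, n = 5). Sox2 differed by -0.05 in Pit1dw/dw from Pit1+/+ (95% interval -0.37 to 0.26, adjusted p = 0.977). The difference of Prop1df/df from Pit1+/+ was 0.31 (95% interval -0.01 to 0.63, adjusted p = 0.221), and that of Prop1df/df from Pit1dw/dw was 0.36 (95% interval 0.05 to 0.68, adjusted p = 0.181). Sox2 has 1 probe set on the array. With a weight for each array's quality the Prop1df/df value passed the test against Pit1+/+, at 0.39 with an adjusted p of 0.0427, and without Prop1df/df pool 5 the difference was 0.20 (adjusted p = 0.457).

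Sox9 was measured by 1451538_at, while its other probe sets, 1424950_at and 1433889_at, were below the median of all values in every pool. In Pit1+/+ its levels were 7.25, 7.47, 6.50, 6.84 and 7.41. They were 7.47, 7.90, 7.07, 7.45 and 7.79 in Pit1dw/dw and 7.16, 7.43, 6.95, 7.16 and 7.27 in Prop1df/df. The ranges overlapped, and Pit1+/+ pool 3 was the lowest of the 15 pools. Means were 7.10 ± 0.41 in Pit1+/+, 7.54 ± 0.32 in Pit1dw/dw and 7.20 ± 0.18 in Prop1df/df (SD, n = 5). The Pit1dw/dw mean was 0.44 above Pit1+/+ (95% interval 0.04 to 0.85), with an adjusted p of 0.529, and 0.29 above it without Pit1+/+ pool 3. The Prop1df/df mean differed from Pit1+/+ by 0.10 (95% interval -0.31 to 0.51, adjusted p = 0.797) and by -0.05 without that pool. Between the mutants the difference was -0.34 (95% interval -0.75 to 0.06, adjusted p = 0.340).

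Sox3 was dim. Both of its probe sets lay below the median of all values in all 15 pools, with 1450485_at between 3.12 and 3.67 and 1435192_at between 2.52 and 3.46. Its order of genotypes differed between them. On 1450485_at the Pit1dw/dw mean was -0.19 from Pit1+/+ (adjusted p = 0.683 over all genes). On 1435192_at it was 0.38 from Pit1+/+ (adjusted p = 0.510 over all single probe sets), where Pit1+/+ pools 4 and 5 read 2.68 and 2.52 and all other pools at least 2.81. Prop1df/df differed from Pit1+/+ by -0.07 and -0.03 on these probe sets, with adjusted p of 0.719 and 0.943. Between the mutants the difference was 0.12 on 1450485_at (adjusted p = 0.566). It was -0.40 on 1435192_at (adjusted p = 0.146), where the ranges of the mutants did not overlap. At these signals no level of Sox3 can be given for any genotype.

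S100b had the largest SD of the 6 in each group. On 1434342_at Pit1+/+ pools 1 to 5 read 6.75, 4.35, 7.80, 6.76 and 5.20. The Pit1dw/dw pools read 6.32, 6.31, 7.64, 7.20 and 7.70, and the Prop1df/df pools 7.15, 7.26, 8.60, 7.87 and 7.21. All 5 Prop1df/df pools were above 4 of the Pit1+/+ pools, but Pit1+/+ pool 3 lay among them. Means were 6.17 ± 1.38, 7.04 ± 0.68 and 7.62 ± 0.62 (SD, n = 5). The Pit1dw/dw mean was 0.87 above Pit1+/+ (95% interval -0.28 to 2.01, adjusted p = 0.743), and the Prop1df/df mean was 1.45 above it, 2.73-fold on the linear scale (95% interval 0.31 to 2.59, adjusted p = 0.102). Neither passed the test. Without Pit1+/+ pool 3 the Prop1df/df difference was 1.86 with an adjusted p of 0.0271, and without Pit1+/+ pool 2 it was 0.99 with an adjusted p of 0.242. The Pit1dw/dw difference was 1.27 without pool 3 and 0.41 without pool 2, with adjusted p of 0.419 and 0.943. Between the mutants S100b differed by 0.58 (95% interval -0.56 to 1.73, adjusted p = 0.588). The second probe set, 1419383_at, gave 0.66 and 1.14 for Pit1dw/dw and Prop1df/df against Pit1+/+, with adjusted p of 0.882 and 0.252.

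S100b is also a gene of Schwann cells, the glia of peripheral nerves, and genes of these cells were high and low in the same Pit1+/+ pools as S100b. Mbp, a myelin protein gene, read 10.24, 6.61, 12.22, 8.35 and 5.69 in the Pit1+/+ pools. It read 8.58, 11.23, 11.51, 9.50 and 11.06 in Pit1dw/dw and 9.31, 11.46, 11.75, 12.21 and 10.09 in Prop1df/df. Pit1+/+ pools 2 and 5 were the lowest of the 15 and pool 3 the highest, and S100b in Pit1+/+ was likewise lowest in pools 2 and 5 and highest in pool 3. Sox10, the transcription factor of the Schwann lineage, stood at 6.91, 4.73, 9.96, 5.89 and 3.92 in the Pit1+/+ pools. It stood at 5.65, 7.22, 8.89, 7.29 and 7.60 in Pit1dw/dw and at 6.63, 7.92, 8.71, 9.06 and 6.36 in Prop1df/df. The match was less full in the mutants. In Pit1dw/dw S100b was highest in pool 5, but Mbp and Sox10 in pool 3. There S100b was lowest in pools 2 and 1, at 6.31 and 6.32, and Mbp and Sox10 were lowest in pool 1. On 1419383_at S100b was also lowest in pool 1, at 4.20. In Prop1df/df S100b was highest in pool 3, but Mbp and Sox10 in pool 4. Over the 14 measured of 17 sensory ganglion and Schwann cell genes, the mean level of a pool ran from 5.66 (pool 5) to 9.26 (pool 3) in Pit1+/+, from 6.23 to 8.71 in Pit1dw/dw and from 6.29 to 9.02 in Prop1df/df. The sum of their linear signals ran from 2742 to 22161, from 4036 to 14699 and from 5075 to 19318 in the same groups. Of the 14 genes 2, Th and Foxd3, were below the median of all values in every pool. None of the 14 passed the test in any comparison, and 0, 3 and 0 of them had an unadjusted p under 0.05 in Pit1dw/dw against Pit1+/+, Prop1df/df against Pit1+/+ and Prop1df/df against Pit1dw/dw, beside 8.46%, 24.4% and 20.1% of all genes. Their median difference from Pit1+/+ was 0.77 in Pit1dw/dw and 0.65 in Prop1df/df, with 11 of 14 positive in each. With the mean of this list as a covariate, S100b was 0.47 above Pit1+/+ in Pit1dw/dw (adjusted p = 0.719) and 0.98 above it in Prop1df/df (adjusted p = 0.0922).

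**Figure D2:**
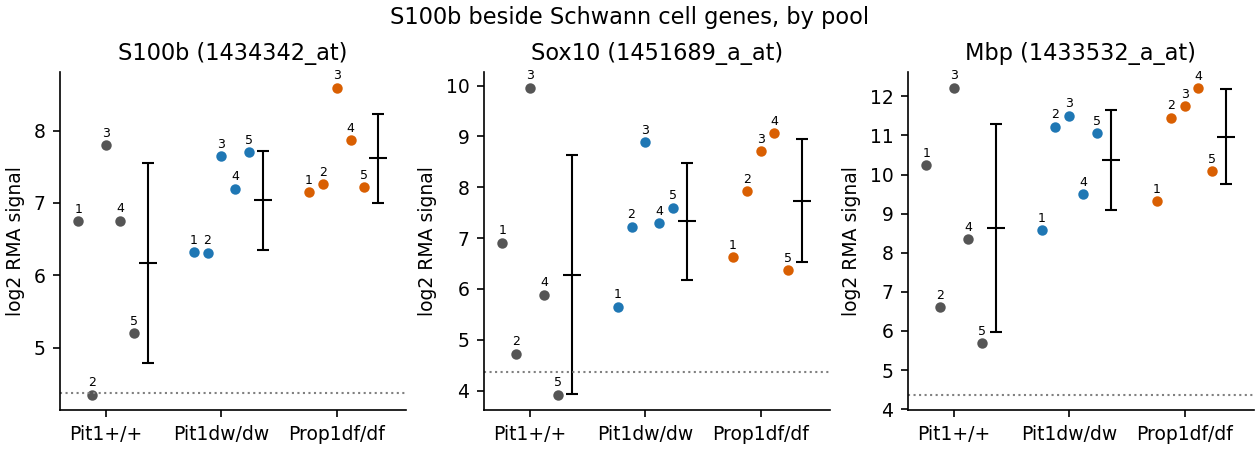
Log2 RMA signal of S100b, Sox10 and Mbp in the 15 pools (numbered points) with the mean and SD of each group (black). In Pit1+/+ pools 2 and 5 were the lowest and pool 3 the highest for each of the 3 genes.

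Nes lay near the median of all values. Its representative probe set, 1418289_at, read 4.60, 4.53, 4.78, 4.42 and 4.25 in Pit1+/+. It read 4.24, 4.42, 4.46, 4.59 and 4.89 in Pit1dw/dw and 4.08, 4.96, 5.07, 5.47 and 4.27 in Prop1df/df. The Prop1df/df pools held both the lowest and the highest value, and the ranges overlapped. The Pit1dw/dw mean equalled that of Pit1+/+ to 2 decimals, a difference of 0.00 (95% interval -0.47 to 0.48, adjusted p = 0.998). The Prop1df/df mean was 0.25 above Pit1+/+ (95% interval -0.22 to 0.73, adjusted p = 0.530). On 1449022_at the signs were the other way, -0.31 and -0.42, with adjusted p of 0.882 and 0.394, and 1453997_a_at was below the median of all values in every pool. Nes thus had no direction common to its probe sets. Without the 5 pools in which Prph exceeded 7 the Prop1df/df difference was -0.01.

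Gfra2 was lower in Prop1df/df. Its representative probe set, 1433716_x_at, read 8.64, 8.85, 8.91, 8.62 and 8.57 in Pit1+/+ pools 1 to 5. The Pit1dw/dw pools read 8.37, 8.82, 8.70, 8.74 and 8.80, and the Prop1df/df pools 8.06, 7.94, 8.79, 8.19 and 7.73. Prop1df/df pools 1, 2, 4 and 5 were below every pool of both other groups, and pool 3 lay within the Pit1+/+ range. Means were 8.72 ± 0.15, 8.69 ± 0.18 and 8.14 ± 0.40 (SD, n = 5). The Prop1df/df mean was 1.49-fold lower than that of Pit1+/+, a log2 difference of -0.58 (SE 0.17, 95% interval -0.93 to -0.23, adjusted p = 0.0351). The Pit1dw/dw mean differed from Pit1+/+ by -0.03 (95% interval -0.38 to 0.32, adjusted p = 0.988). The difference between the mutants was -0.55 (95% interval -0.90 to -0.19), with an adjusted p of 0.0640.

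The fall in Gfra2 was read by only some of its probe sets. A second one, 1459847_x_at, stood at 5.84, 6.22, 6.21, 5.91 and 5.76 in Pit1+/+, and at 5.21, 5.17, 6.03, 5.59 and 5.10 in Prop1df/df. It gave a log2 difference of -0.57 and passed with an adjusted p of 0.0483 when each probe set was tested on its own, a fit in which 8.12% of all probe sets passed. Prop1df/df pool 3 again lay within the Pit1+/+ range. The other 3 probe sets gave 0.20 (1423007_a_at), -0.12 (1425578_a_at) and -0.14 (1425579_at) and did not pass. 1423007_a_at and 1425579_at were below the median of all values in every pool. By its ending, _x_at, a probe set is marked by the array's design as holding probes that can match other transcripts. When these were set aside together with sets marked _s_at and _a_at, only 1425579_at was left for Gfra2, with its -0.14 (adjusted p = 0.539). As that set was below the median of all values in every pool, this setting cannot show whether the fall held without them. The set 1425578_a_at, not marked _x_at, was above that median in all 15 pools, at 4.48 to 5.16. Tested on its own, it gave -0.12 (95% interval -0.38 to 0.14, adjusted p = 0.634), so it did not read a fall of the size given by the _x_at sets.

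**Figure D3:**
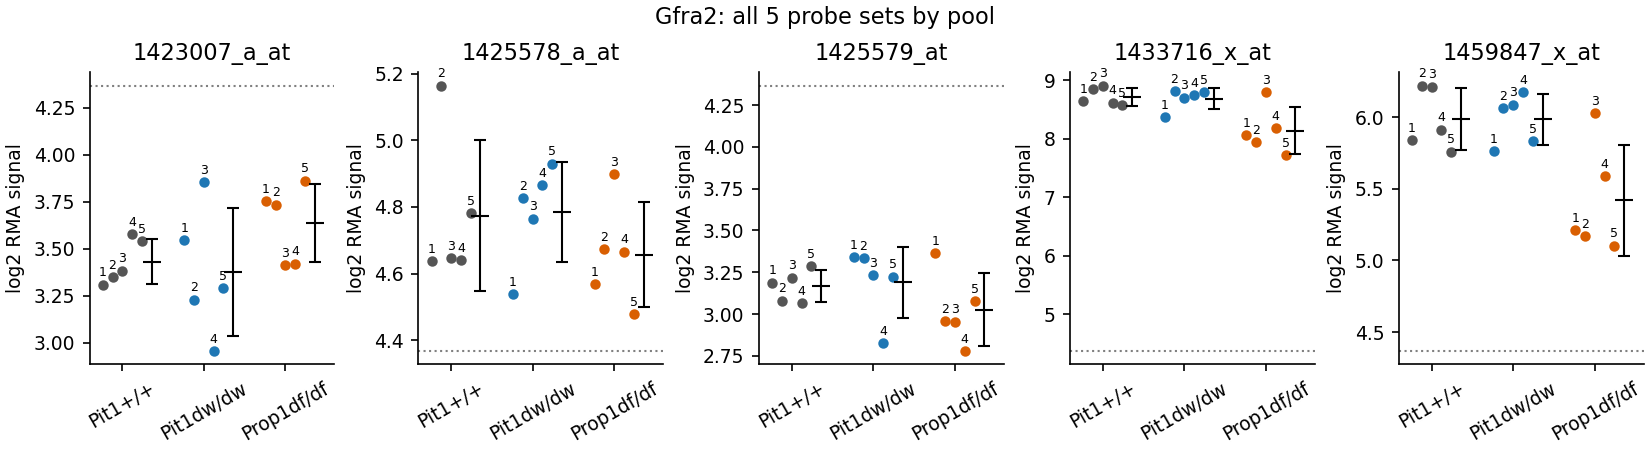
Log2 RMA signal of the 5 Gfra2 probe sets in the 15 pools (numbered points), with the mean and SD of each group (black) and the median of all values (dotted line). The probe sets ending in _x_at were lower in Prop1df/df pools 1, 2, 4 and 5 than in any Pit1+/+ pool, while the other 3 did not pass the test.

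The Gfra2 call was close to the threshold and was lost under 13 of 28 other settings. It was lost with the mean of its probe sets, at -0.24 (adjusted p = 0.0941), with the 2 groups fitted alone (adjusted p = 0.0886), with the mean of the bone and cartilage genes as a covariate, at -0.42 (adjusted p = 0.383), and without the 3 pools low in Xist, at -0.60 (adjusted p = 0.0957). Leaving out Pit1+/+ pool 1, 2, 3 or 4 or Prop1df/df pool 1, 2, 4 or 5 moved its adjusted p to between 0.0547 and 0.0897, with differences of -0.60 to -0.47. Without Prop1df/df pool 3 the difference was -0.74 (adjusted p = 0.00161). Prph was at 10.46 in Prop1df/df pool 3 and at 10.59 in Pit1+/+ pool 3, the pool with the highest Gfra2. In the other pools high in Prph, Pit1dw/dw pools 2 and 3 and Prop1df/df pool 4, Prph was at 7.79, 9.89 and 8.93. Gfra2 was at 8.82, 8.70 and 8.19 in them. With the ganglion and Schwann list as a covariate Gfra2 differed by -0.70 (adjusted p = 0.00305), and without the 5 pools high in Prph by -0.76 (adjusted p = 0.0118). The difference between the mutants passed without Pit1dw/dw pool 1, at -0.62 (adjusted p = 0.0462), and without Prop1df/df pool 3, at -0.71 (adjusted p = 0.00291).

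The markers were also compared with Prop1df/df pools 1 to 3, those high in Gh, left out, which leaves 2 Prop1df/df pools. Gfra2 was then -0.76 from Pit1+/+ (adjusted p = 0.0216) and -0.73 from Pit1dw/dw (adjusted p = 0.0384). Sox2 was 0.53 from Pit1+/+ (adjusted p = 0.151) and S100b 1.37 from it (adjusted p = 0.377). Sox9 and Nes differed by 0.12 and 0.35, with adjusted p of 0.871 and 0.559.

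**Figure D4:**
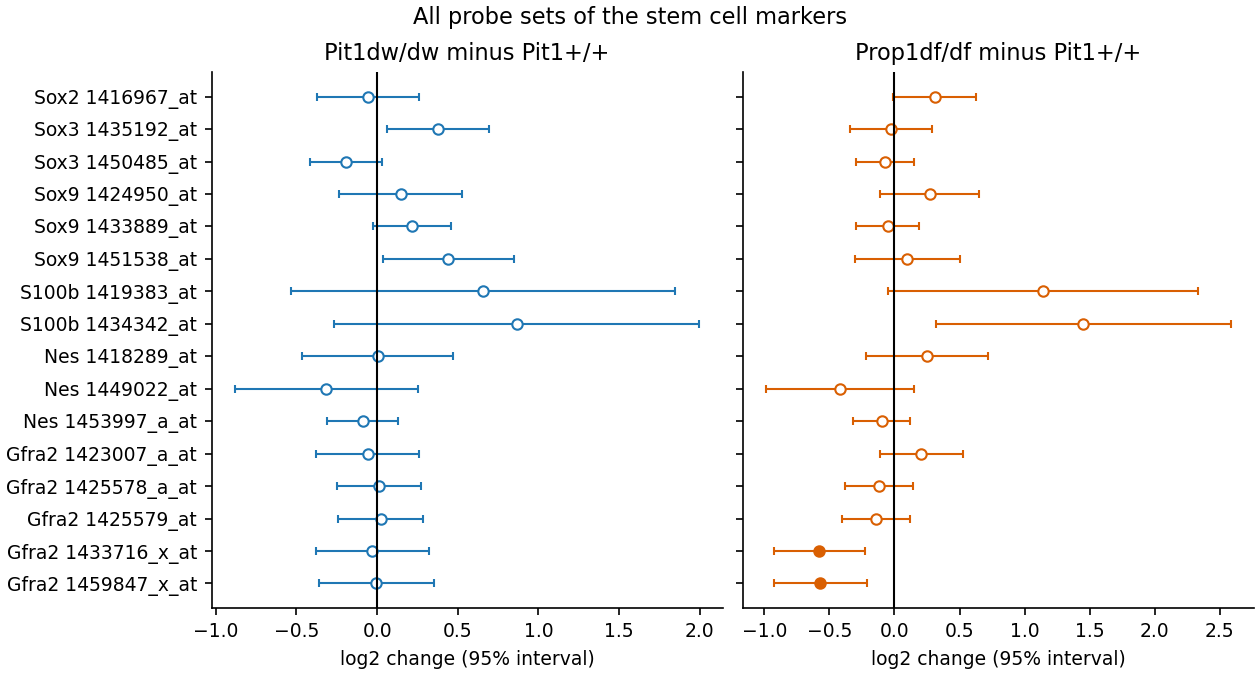
Log2 change of each of the 16 probe sets of the 6 markers in Pit1dw/dw and in Prop1df/df against Pit1+/+, with 95% intervals, from the fit in which each probe set was tested on its own. Filled points passed the test, which were 2 Gfra2 probe sets in Prop1df/df and none in Pit1dw/dw.

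The ligands and other receptors of the GDNF family were set beside Gfra2. Of 10 measured genes Gfra2 was the 1 that passed in Prop1df/df against Pit1+/+, and none passed in Pit1dw/dw, where 1 had an unadjusted p under 0.05. Gfra4, the receptor for persephin, differed by -0.59 in Prop1df/df with an adjusted p of 0.0513, and it passed under 9 of 27 other settings, among them without Prop1df/df pool 3 (-0.68, adjusted p = 0.0275) or pool 4 (-0.72, adjusted p = 0.0166). Ret, the kinase through which these receptors signal, differed by 0.43 (adjusted p = 0.842). Nrtn, the neurturin gene, differed by -0.34 (adjusted p = 0.250) from a Pit1+/+ mean of 3.25, below the median of all values. With 1 probe set for each gene, Sox21 was the 1 of the 19 measured Sox genes that passed in Prop1df/df against Pit1+/+, and none passed in Pit1dw/dw, where Sox9 had an unadjusted p under 0.05. Of the 6 probe sets of Sox11 2 passed in Prop1df/df when tested on their own, over changes from -1.25 to 0.77. Among 15 intermediate filament genes, the family of Nes, Krt19 was higher in Prop1df/df by 1.17 (adjusted p = 0.0156), and none passed in Pit1dw/dw, where 0 had an unadjusted p under 0.05.

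Other genes of pituitary progenitors were set beside the 6 markers. Of 31 measured, 8 were higher and 5 lower in Prop1df/df than in Pit1+/+, beside 3.25% higher and 7.31% lower of all genes. None of the 31 passed in Pit1dw/dw, where 5 (16.1%) had an unadjusted p under 0.05 beside 8.46% of all genes. The median change of the 31 was 0.16 in Prop1df/df and 0.02 in Pit1dw/dw. In Pit1dw/dw the smallest adjusted p were those of Egfr at 0.54 (adjusted p = 0.186), of the endothelin receptor gene Ednrb at 0.48 (0.440), of Notch2 at 0.28 (0.470) and of Mia at 0.51 (0.487), and without Pit1+/+ pool 3 the count that passed was 1. Between the mutants 6 were higher and 5 lower in Prop1df/df, beside 2.21% and 4.05% of all genes.

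The higher genes were led by Hesx1, a homeobox repressor of the early pituitary primordium. Hesx1 read 2.79 to 3.05 in Pit1+/+ and 2.56 to 3.15 in Pit1dw/dw, and 5.15, 5.67, 4.40, 5.90 and 5.93 in Prop1df/df pools 1 to 5. All 5 Prop1df/df pools were above every other pool, with a log2 difference of the signals from Pit1+/+ of 2.51 (adjusted p = 6.0e-06). Its Pit1+/+ and Pit1dw/dw signals were below the median of all values, as were those of Sox21 and Cyp2f2 on average, so no level can be given there and these differences are not read as folds of the transcript. Sox21, a relative of Sox2, was higher by 1.40 (adjusted p = 6.8e-04) on 1 of its 2 probe sets and differed by 0.01 on the other. Prom1, the gene of the stem cell surface protein CD133, rose from 9.37 ± 0.20 to 10.14 ± 0.19 (SD, n = 5), a difference of 0.78 (adjusted p = 3.9e-04), with no overlap of the pools. The tight junction gene Cldn6, the E-cadherin gene Cdh1, the growth factor receptor gene Egfr, Cyp2f2 and the mesenchymal homeobox gene Prrx1 also rose, by 1.21, 0.99, 0.80, 0.84 and 0.45.

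Aldh1a2, which makes retinoic acid, fell the most of the 31 in Prop1df/df. It read 8.00 to 8.85 in Pit1+/+ and 5.67, 6.86, 7.04, 6.74 and 6.01 in Prop1df/df, a log2 difference of -2.08 (SE 0.25, adjusted p = 6.2e-05) with no overlap. Mia, which encodes a secreted cartilage and melanoma protein, differed by -1.08 and the RNA-binding protein gene Rbpms by -0.64. The homeobox genes of the eye and pituitary fields Six3 and Six6 differed by -0.87 and -0.76, with adjusted p of 0.0132 and 0.0277. Lhx3, a homeobox gene needed for the pituitary primordium, differed by 0.09 (adjusted p = 0.824) on its brighter probe set and by 1.04 on the other, which passed when tested on its own. The Notch receptor gene Notch2 differed by 0.13 (adjusted p = 0.527). The Notch target Hes1 was below the median of all values on average in each group.

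With Prop1df/df pools 1 to 3, those high in Gh, left out, 6 of the 31 were higher and 1 lower, and without the 3 pools low in Xist 9 were higher and 3 lower. Hesx1, Aldh1a2, Sox21 and Prom1 passed under each setting tried for them, and each of the other 9 failed under at least 1. Six6 failed under 9 of 28 settings, among them without Pit1+/+ pool 2 or 4 or Prop1df/df pool 1 or 3, with differences of -0.70 to -0.60 and adjusted p of 0.0525 to 0.0784. Prrx1 failed under 17 of 28, with adjusted p from 0.0196 to 0.569 over all settings. The single pools without which it failed were Pit1+/+ pools 1, 2, 3 and 5, Pit1dw/dw pools 1 and 3 and Prop1df/df pools 1, 2, 3 and 5, with differences of 0.40 to 0.48.

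**Figure D5:**
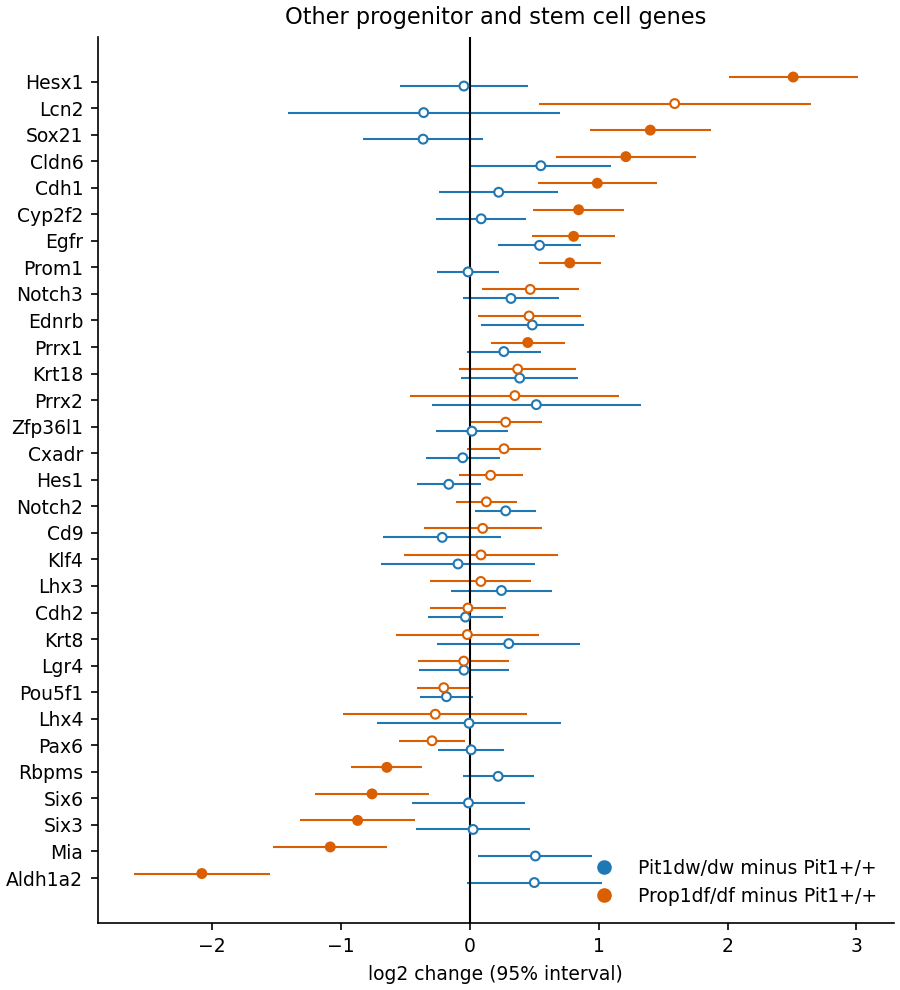
Log2 change of the 31 other progenitor and stem cell genes in Pit1dw/dw (blue) and Prop1df/df (orange) against Pit1+/+, with 95% intervals, ordered by the Prop1df/df change. Filled points passed the test, 13 in Prop1df/df and none in Pit1dw/dw.

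Genes of folliculostellate cells, with which the stem cells share S100b, were higher in Prop1df/df for 4 of 19 and lower for none. These were Anxa1 by 0.96, S100a1 by 0.72, Fxyd1 by 1.17 and S100a6 by 1.46, with adjusted p of 0.0132, 0.0168, 0.0170 and 0.0472. None of the 19 passed in Pit1dw/dw, where 3 (15.8%) had an unadjusted p under 0.05 beside 8.46% of all genes. There 18 of the 19 differences were positive, with a median of 0.30, beside 8216 of 18193 over all genes. Of the ganglion and Schwann genes 11 of 14 were positive in the same comparison, with a median of 0.77, and of the fibroblast genes 9 of 9, with a median of 0.25. S100a6 failed under 17 of 27 settings, among them without Pit1+/+ pool 1, 2, 4 or 5, Pit1dw/dw pool 2, 4 or 5, or Prop1df/df pool 2, 3, 4 or 5, with differences of 1.25 to 1.56. Fxyd1 was at 6.84 and 6.10 in Pit1+/+ pools 2 and 5 and at 7.85 in pool 3, and Cryab, a small heat shock protein gene, at 8.76, 8.51 and 10.65. Without the Prop1df/df pools high in Gh none of the 4 passed, none did with the mean of the bone and cartilage genes as a covariate, 2 genes of the list did without the 3 pools low in Xist, and 1 did when sets marked _x_at, _s_at and _a_at were set aside.

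Markers of bone, cartilage and fibroblasts moved with the Prop1df/df group. Of 13 measured bone and cartilage genes, 4 were higher in Prop1df/df than in Pit1+/+: Col2a1 by 1.84, Col11a1 by 1.22, Col9a1 by 0.98 and Matn1 by 0.59. None passed in Pit1dw/dw, where 1 had an unadjusted p under 0.05. The median of the 13 was 0.68, and their mean level in a pool ran from 4.98 to 6.30 in Pit1+/+, from 5.57 to 6.48 in Pit1dw/dw and from 6.16 to 7.36 in Prop1df/df. Their summed linear signal ran from 666 to 2625, from 1021 to 2762 and from 1811 to 6021, and Matn1 was below the median of all values in every pool. Of 9 fibroblast genes 5 were higher in Prop1df/df, with a median of 0.61, among them the collagen gene Col3a1 and the proteoglycan genes Dcn and Lum. In Pit1dw/dw none of the 9 passed, with 1 at an unadjusted p under 0.05. With the mean of the 13 bone and cartilage genes as a covariate, S100b differed by 0.90 between Prop1df/df and Pit1+/+ (adjusted p = 0.615), and 3 progenitor genes were higher and 1 lower. The part of these tissues in the differences was not tested beyond these values.

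Markers of the neural lobe and hypothalamus were 3 of 14 lower in Prop1df/df (Col25a1, Six3 and Oxt) and none in Pit1dw/dw, where 1 had an unadjusted p under 0.05. Of the 14, Lhx2, Fgf10, Nkx2-1, Avp and Vax1 were below the median of all values in every pool. Of 13 endothelium and pericyte genes the 1 that passed against Pit1+/+ was Abcc9, a pericyte channel subunit gene, at -1.92 in Prop1df/df, and 2 had an unadjusted p under 0.05 in Pit1dw/dw. None of 9 oral epithelium genes passed against Pit1+/+ in either mutant, with 1 at an unadjusted p under 0.05 in each. Of 9 measured Pit1 lineage genes 7 were lower in Pit1dw/dw and 8 in Prop1df/df. Of 9 genes of the other hormone cells 6 were lower in Prop1df/df. In Pit1dw/dw 2 of the 9, genes of gonadotrophs, were higher, Nr5a1 by 1.38 and Gnrhr by 1.49. Over their probe sets the Pit1dw/dw change ran from 0.22 to 1.38 for Nr5a1 and from 0.05 to 1.49 for Gnrhr. For each of these 2 genes 1 probe set passed when tested on its own.

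The genes most like each marker were found over the 15 pools after each group's mean was subtracted, among 11783 genes with a mean above the median of all values. They are the highest of many, so their Pearson r is high by choice, and all pools enter each value. Sox2 followed most closely Cdh2, the N-cadherin gene (r = 0.953), then the kinase gene Hipk2 (r = 0.914) and the tetraspanin gene Tspan12 (r = 0.871). Cdh2 itself differed by -0.02 in Prop1df/df and -0.03 in Pit1dw/dw from Pit1+/+, with adjusted p of 0.959 and 0.987. Sox9 was most like Nr3c1, the glucocorticoid receptor gene (r = 0.875), Stxbp4 (r = 0.869) and Psip1 (r = 0.860). For S100b the closest were the protease gene Prss12 (r = 0.965), the secreted Wnt antagonist gene Sfrp1 (r = 0.950) and the formin gene Daam2 (r = 0.943).

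For Nes the closest were Mboat1 (r = 0.955), Cyb5b (r = 0.935) and the pannexin gene Panx2 (r = 0.932). Gfra2 was most like Prkar2b, a regulatory subunit of protein kinase A (r = 0.920), the adhesion gene Dscam (r = 0.919) and the drebrin gene Dbn1 (r = 0.915). For the dim Sox3 the closest were Tbce (r = 0.868), 4930594M22Rik (r = 0.859) and Cped1 (r = 0.836). No gene was among the closest 3 of more than 1 marker.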

How the data were processed

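The authors processed the arrays with RMA, per the submitters' processing notes, and the deposited values are log2 signals. Because RMA brings all arrays to 1 distribution, a level is relative to the rest of its array. No RMA version is named there. Groups were taken from the titles. Array medians ran from 4.31 to 4.43, and the number of arrays limits the precision. Of 45037 probe sets (64 controls left out), 34945 name 1 gene in the platform annotation, 932 several and 9160 none; 34741 were matched to RefSeq gene records by ID. Of several probe sets of a gene, the brightest on average stood for it, which left 18193 genes.

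A mean per group was fitted to the 15 arrays together in R 4.3.3 (limma 3.58.1, functions lmFit and eBayes, two-sided), with Benjamini-Hochberg adjustment over all genes and a threshold of 0.05. The fit was tested on simulated data. The markers and the 14 lists (180 genes, 169 measured) were chosen with earlier results of these data known. All probe sets of the markers are named, and of each list the up to 4 genes with the smallest adjusted p in each comparison with Pit1+/+ could be named; other genes were named after their values were seen. Other settings were scaling, probe set choice, filters, array weights, the 2 groups alone, a replicate block and each pool left out. Leaving out pools high in Prph or Gh or low in Xist and both covariates were chosen after seeing the data. The labels call the pools biological replicates but do not say whether pups of 1 litter were shared between pools, so p-values measure the spread between pools. Replicate numbers did not pair the pools. Figures were drawn with matplotlib 3.10.9.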

Additional observations from a re-analysis of the deposited data

Results flagged for a closer look

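In each group of 5 pools, the highest and the lowest value were set against the nearest other value, over 120 groups of values, and 7 (5.83%) stood out by Dixon's 95% limit; chance marks about 5% of such groups. Among the markers these were 3 Gfra2 probe sets. On 1433716_x_at Pit1dw/dw pool 1 was low at 8.37, with the next pool at 8.70. On 1425578_a_at Pit1+/+ pool 2 was high at 5.16, with the next at 4.78, and on 1425579_at Pit1dw/dw pool 4 was low at 2.82, with the next at 3.22.

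Among the genes set beside the markers, Sox21 was low at 3.06 in Pit1+/+ pool 2, with the next pool at 3.53. Six3 was low at 7.42 in Pit1+/+ pool 5, with the next pool at 8.12. Anxa1 was low at 7.55 in Pit1dw/dw pool 2, with the next pool at 8.42. Col2a1, a cartilage collagen gene, was high at 10.51 in Prop1df/df pool 5, with the next pool at 8.73.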

How the results depend on the processing

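For Prop1df/df against Pit1+/+, 0 of the 6 markers passed with the mean of the probe sets of a gene, with sets marked _x_at, _s_at and _a_at set aside, with the groups compared alone, with the bone and cartilage covariate or without the pools low in Xist. With the marked sets aside Gfra2 was read by 1425579_at alone, which was below the median of all values in every pool. With array weights 2 passed, and with the replicate block 2 passed (Gfra2, and S100b at an adjusted p of 0.0275). With single pools left out 0 to 1 passed. For Prop1df/df against Pit1dw/dw 1 passed with array weights, the replicate block, the ganglion covariate, the pools high in Prph left out or those high in Gh left out, and 0 to 1 with single pools left out. For Pit1dw/dw against Pit1+/+ the count was 0 in all 29 settings. The correlation of same-numbered pools' deviations ran from -0.31 to 0.67, so the block is given here alone. The genes called over all ran as follows. For Pit1dw/dw against Pit1+/+ they were 571 with array weights, 51 without the pools high in Prph and 83 to 161 without single pools (lowest without Pit1dw/dw pool 2, and under 100 also without Pit1+/+ pool 1, 2 or 4 or Pit1dw/dw pool 1, 3, 4 or 5), and 28 without the 3 pools low in Xist, against 140. For Prop1df/df against Pit1+/+ they were 4297 with array weights, 3272 with the ganglion covariate, 578 with the bone covariate, 890 without the pools high in Gh and 1401 to 3258 without single pools (highest without Pit1+/+ pool 5), and 1156 without the pools low in Xist, against 1920. For Prop1df/df against Pit1dw/dw they were 2390, 1726, 479 and 503 in the same order and 746 without the pools high in Prph and 482 without those low in Xist, against 1139. The cause was not tested. Signs turned for differences that did not pass. For Pit1dw/dw against Pit1+/+, Sox2 was 0.055 with array weights, 0.0033 with the ganglion covariate and -0.12 to 0.015 without single pools. Sox3 was 0.093 with the mean of its probe sets. Nes was -0.13 with that mean, -0.013 with array weights, -0.13 with the ganglion covariate and -0.089 to 0.072 without single pools. Gfra2 was 0.023 without _x_at, _s_at and _a_at probe sets, 0.040 with array weights and -0.068 to 0.047 without single pools. For Prop1df/df against Pit1+/+, Sox3 was 0.0097 with array weights, Sox9 -0.048 to 0.19 without single pools, and Nes -0.088 with the mean of its probe sets and -0.014 without the pools high in Prph. Against Pit1dw/dw, Sox3 was -0.14 with the mean of its probe sets and Nes -0.14 without the pools high in Prph. Without dim genes the median of all genes in Prop1df/df shifted to -0.10, and no direction of the 5 markers left in turned. The bone covariate itself differs between the groups, and 5 pools a group and the dim signals of Sox3 limit what can be seen.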
